A study of Homo sapiens with 6 samples.

Results

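The nuclear-encoded genes of the mitochondrial respiratory chain were taken as the protein-coding GENCODE genes with symbols that start with NDUFA, NDUFB, NDUFC, NDUFS, NDUFV, UQCR, COX4, COX5, COX6, COX7, COX8 or ATP5, together with SDHA, SDHB, SDHC, SDHD, CYC1 and CYCS. This gave 100 genes among the 58302 genes counted. There were 38 genes in complex I, 8 in the group of NDUFAF assembly factors of complex I, 4 in complex II, 10 in complex III, 1 for cytochrome c, 19 in complex IV and 20 in complex V. NDUFA4 and NDUFA4L2 were counted with complex IV, because the NDUFA4 protein is now placed there in spite of its name. After the filter on low counts, 91 of the 100 genes were tested, among 15075 genes in all.

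The respiratory chain oxidises NADH and succinate in the inner mitochondrial membrane. Complexes I and II pass electrons through ubiquinone to complex III, cytochrome c carries them to complex IV, which reduces oxygen, and complexes I, III and IV pump protons that drive ATP synthesis by complex V. A few core subunits are encoded by mitochondrial DNA, while most subunits and the assembly factors are encoded in the nucleus, and several subunits of complex IV have paralogs that are used in particular tissues or at low oxygen.

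RNA was sequenced from MDA-MB-231 cells, a human breast cancer cell line that the study classes as mesenchymal/basal-like, in 2 groups of 3 libraries. One group stably expressed a control shRNA and the other Smyca shRNA #1, which is directed against the lncRNA Smyca. The study states the pLKO.1 vector for the Smyca shRNAs and names no vector for the control shRNA. The knockdown rests on 1 shRNA, and no untransduced cells were among the samples. The study linked Smyca to metabolic reprogramming in cancer cells, and the comparison asks whether transcripts of the respiratory chain differed between the groups. Values are normalized CPM, in which TMM factors put the counts of the libraries on 1 scale, and ratios are given as log2 of control over knockdown, so that a negative value means a lower level in the control. A gene was called changed when its ratio was at least 1.5 or at most 0.66 and its p, adjusted over all genes tested by the Benjamini-Hochberg method, was under 0.05 (edgeR's quasi-likelihood test).

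Smyca, counted as MIR23AHG (ENSG00000267519), had 405, 317 and 343 counts in the control libraries and 165, 110 and 85 in the knockdown libraries, without overlap (log2 ratio 1.53, standard error 0.26, adjusted p = 0.111, edgeR's quasi-likelihood test). The library totals were between 14999307 and 16501085 counts. Control replicate 3 stood apart from its group. Over all genes tested, its log2 CPM correlated at 0.957 and 0.966 with control replicates 1 and 2, and at 0.973 to 0.974 with the knockdown libraries, so results are given with and without it where it decides them. The FPKM column of control replicate 2 did not follow its own counts. Across 15075 genes, the reads recovered from it correlated at 0.993 with the counts of control replicate 3 and at 0.954 with those of control replicate 2. Of the markers, VIM, CD44, AXL, CAV1, MSN and LGALS1, which the mesenchymal line is known for, were counted in all 6 libraries. They summed to 880.8 to 2035 normalized CPM in the control and 848.3 to 1282 in the knockdown, with 4 of 6 (66.7%, beside 10.4% of all genes) higher in the control at an unadjusted p under 0.05. Of genes known to be low or absent in this line, ESR1, PGR and FOXA1 had at most 3 counts in any library. GATA3, from the same list, had 19 to 61 counts a library. However, CDH1, EPCAM, VIL1 and HNF4A, epithelial genes not known for this line, were also counted in all 6 libraries, at 71.5 to 300.1, 236 to 336, 221 to 501 and 65.4 to 194 normalized CPM. In a list of 7 intestinal epithelial genes that holds VIL1 and HNF4A, the summed level was 294.1 to 542.2 in the control and 627.6 to 707.8 in the knockdown. VIL1 was lower and LGALS4 higher in every control library than in any knockdown library. CDX2 had 95 to 168 counts a library and CDH17 had 11 to 67. CDX1 had 0 counts in all 6 and KRT20 at most 6 in any. The labels are therefore used as names of the libraries. What a difference in cell make-up contributes was not tested, and in bulk RNA fewer cells of a type and less RNA per cell cannot be told apart.

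For 2 pairs of members, sequence bears on how far their counts can be told apart, and their coding sequences are shown for that reason. UQCRH, the hinge subunit of complex III, lies at chr1:46303698-46316776 on the plus strand. UQCRHL, an intronless copy of it, lies at chr1:15807169-15809348 on the minus strand. Both coding sequences have 276 bases and differ at 4 of them, marked by capitals. The coding sequences come from GENCODE release 44 on GRCh38.
UQCRH: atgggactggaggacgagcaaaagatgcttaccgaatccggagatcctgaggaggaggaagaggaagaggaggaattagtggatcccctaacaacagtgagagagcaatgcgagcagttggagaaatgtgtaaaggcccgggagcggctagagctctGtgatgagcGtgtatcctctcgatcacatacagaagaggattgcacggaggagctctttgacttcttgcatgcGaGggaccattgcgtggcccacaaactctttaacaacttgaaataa
UQCRHL: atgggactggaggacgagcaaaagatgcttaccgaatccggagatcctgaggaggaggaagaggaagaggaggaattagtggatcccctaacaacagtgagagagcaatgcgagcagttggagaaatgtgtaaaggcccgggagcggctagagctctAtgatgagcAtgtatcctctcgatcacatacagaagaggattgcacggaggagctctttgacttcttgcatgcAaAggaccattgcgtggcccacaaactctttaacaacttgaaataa
Their identity was 98.6%, and the longest identical run had 157 bases, longer than a single read of 150 bases. Reads of this pair cannot always be assigned to 1 of them, and UQCRHL values are uncertain for that reason.

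NDUFA4, at chr7:10931943-10940153, and its paralog NDUFA4L2, at chr12:57234903-57240715, both lie on the minus strand. Capitals mark the bases that differ or have no partner in the alignment.
NDUFA4: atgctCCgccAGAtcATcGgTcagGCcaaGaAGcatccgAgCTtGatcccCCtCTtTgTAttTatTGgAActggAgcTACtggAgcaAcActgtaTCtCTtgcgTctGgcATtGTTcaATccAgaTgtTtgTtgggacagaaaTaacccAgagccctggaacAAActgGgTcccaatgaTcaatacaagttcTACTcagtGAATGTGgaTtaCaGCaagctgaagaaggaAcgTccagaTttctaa
NDUFA4L2: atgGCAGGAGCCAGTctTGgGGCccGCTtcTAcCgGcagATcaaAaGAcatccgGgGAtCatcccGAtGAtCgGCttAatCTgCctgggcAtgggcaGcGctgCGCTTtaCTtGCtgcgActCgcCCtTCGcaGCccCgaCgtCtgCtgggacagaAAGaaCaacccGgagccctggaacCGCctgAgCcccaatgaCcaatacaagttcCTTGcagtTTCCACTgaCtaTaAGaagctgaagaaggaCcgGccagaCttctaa
Over 241 aligned bases their identity was 68.9%, and the longest identical run had 14 bases. At this distance, reads of the coding sequence can be told apart, and the large spread of NDUFA4L2 between libraries was not shared with NDUFA4.

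None of the 91 respiratory chain genes tested was called changed. Over all genes tested, 4 of 15075 were called, a share of 0.0265%. At an unadjusted p under 0.05, 3 members were higher in the control, namely NDUFA4L2, NDUFV2 and UQCRHL, and 5 were lower, namely CYC1, SDHA, NDUFAF2, NDUFS4 and NDUFS1. The 3 and 5 are 3.3% of the members against 10.4% of all genes in the first direction, and 5.49% against 8.74% in the second. UQCRHL passed the filter only through the control libraries, where it is high. With a minimum of 10 counts in all libraries, 2 of 89 members (2.25%) were higher, beside 10.6% of all genes. With DESeq2's Wald test 2 of the 91 members were called, CYC1 and NDUFV2, beside 836 of all genes. With library totals in place of TMM, 3 members were lower and 3 higher in the control at an unadjusted p under 0.05, beside 5.86% and 13% of all genes.

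The members kept close to a ratio of 1. Their log2 ratios had a median of -0.11, beside 0.04 over all genes tested, and 60 of the 91 were below 0. The median was negative under each of the 13 alternative fits, from -0.18 to -0.04. Only 4 members had a ratio of at least 1.5, where 15.6% of all genes did, and 1 had a ratio of at most 0.66, where 5.54% of all genes did. Of the 91 members, 44 (48.4%) had a 95% interval of the ratio that lay wholly within 1.5-fold in both directions, and so did 22.1% of all genes. The intervals of the other members reached past 1.5-fold in at least 1 direction.

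**Figure D1:**
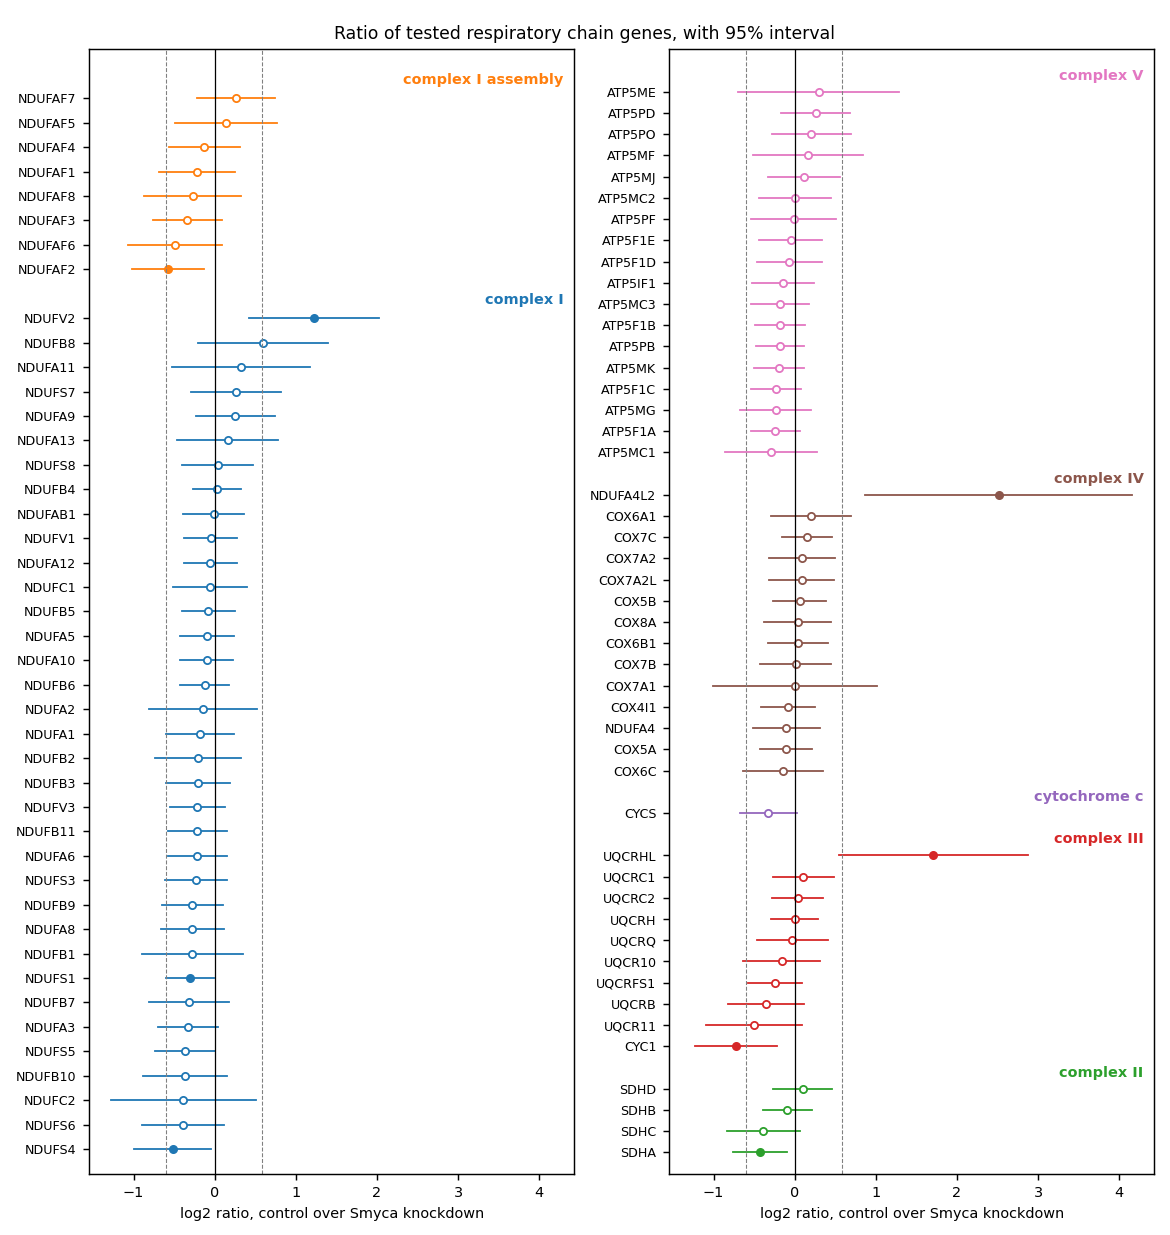
Log2 ratio of control over Smyca knockdown (horizontal axis) for the tested genes except 1 that is not reported by name, grouped by complex, with the 95% interval as a line and a filled point at an unadjusted p under 0.05. Dashed lines mark ratios of 1.5 and 0.66, and NDUFA4L2, at 2.51, is farthest from 0.

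Taking all members together, their summed level was 8523, 8972 and 9505 normalized CPM in control replicates 1, 2 and 3 and 9703, 10600 and 9335 in the knockdown. The ranges overlapped, since knockdown replicate 3 was below control replicate 3. Members took 0.837% to 1.02% of the counts of a library. No overlap between the groups was seen for 14 members that were lower in the control, 15.4% of those tested, where 12.5% of all genes behaved that way. In the other direction there were 4 members, or 4.4%, where 12.4% of all genes were higher in the control without overlap. For a single gene, a two-sided exact permutation test of 3 against 3 libraries cannot go below p = 0.1.

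By complex, the median log2 ratio was -0.16 in complex I, -0.24 in the NDUFAF group, -0.24 in complex II, -0.10 in complex III, 0.04 in complex IV and -0.11 in complex V. Cytochrome c, with CYCS alone, was at -0.33. Complex IV was thus nearest to the median of all genes and the other groups were below it. In most complexes the control libraries differed among themselves as much as the groups did. In complex I, the mean relative level on the log2 scale was -0.18, -0.10 and 0.12 in control replicates 1, 2 and 3 and 0.06, 0.18 and -0.09 in the knockdown. On this measure the groups did not overlap in complex II, cytochrome c and complex IV. Complex II was at -0.13, -0.05 and -0.12 in the control and 0.13, 0.18 and -0.01 in the knockdown. Complex IV was the other way round, with 0.15, 0.07 and 0.05 in the control and -0.01, -0.05 and -0.21 in the knockdown, and its mean includes NDUFA4L2. For the 11 tested subunits left without NDUFA4L2, COX7A1 and COX7A2L, a factor of supercomplex formation, the groups overlapped, with -0.04, -0.04 and 0.11 in the control and 0.07, 0.15 and -0.25 in the knockdown.

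**Figure D2:**
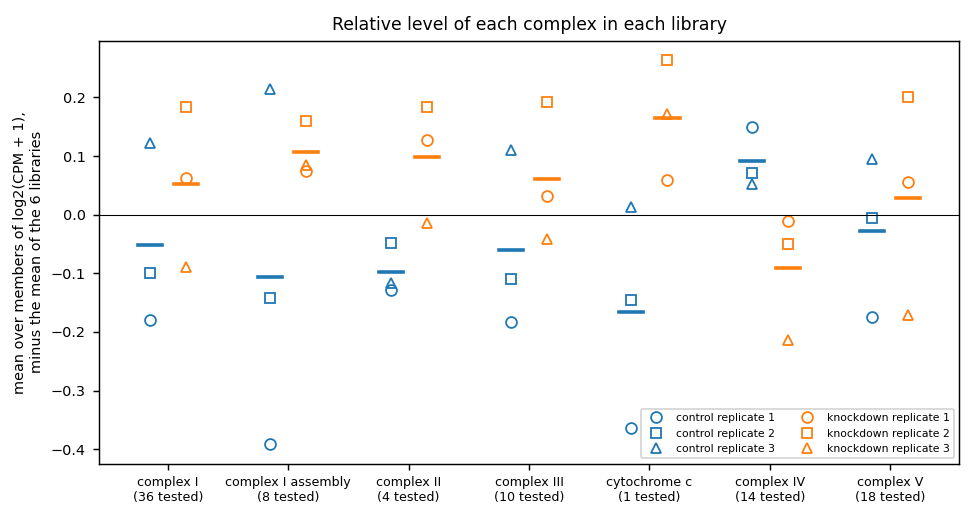
Mean over the tested members of log2(CPM + 1), after subtracting each gene's mean over the 6 libraries (vertical axis), for each complex and library, with short bars at the group means. Control replicate 3 is above control replicates 1 and 2 in complex I, the assembly factors, complex III, cytochrome c and complex V.

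Without control replicate 3, more members passed. With the same edgeR test and adjustment, 5 of 92 members tested were then called, beside 10.5% of all genes: NDUFA4L2 at a log2 ratio of 2.98 (adjusted p = 0.0119), CYC1 at -0.90 (0.0357), NDUFAF6 at -0.81 (0.034), UQCR11 at -0.80 (0.0472) and COX6B2. COX6B2 passed the filter only through the 2 control libraries in which it is high, so its call is not read as a difference. At an unadjusted p under 0.05, 16 members were lower in the control, or 17.4% beside 13.9% of all genes, and 4 were higher, or 4.35% beside 15.7%. These 4 were NDUFA4L2, NDUFV2, UQCRHL and COX6B2, and the last 2 of them passed the filter only through control libraries. The median log2 ratio of the members was then -0.18. It was -0.23 in complex I, with 29 of 36 genes below 0, and 0.01 in complex IV.

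Complex I takes electrons from NADH. Of its 36 tested genes, 28 were lower and 8 higher in the control, with a range of log2 ratios from -0.52 to 1.22. At an unadjusted p under 0.05, 1 (2.78%) was higher (NDUFV2) and 2 (5.56%) were lower (NDUFS4 and NDUFS1), beside 10.4% and 8.74% of all genes. Its 7 nuclear core subunits, which bind the flavin and the iron-sulphur clusters or couple them to the quinone site, had a median of -0.05, and the 29 accessory subunits one of -0.20.

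NDUFS1, the largest core subunit, was at 127.8, 121.8 and 115.9 normalized CPM in the control and at 152, 148 and 151 in the knockdown. Each control library was below each knockdown library. Its means were 122 ± 5.95 and 151 ± 1.85 (SD, n = 3 each), and its log2 ratio was -0.31 (standard error 0.13, adjusted p = 0.244, edgeR's quasi-likelihood test). When any 1 library was left out the log2 ratio was between -0.34 and -0.28.

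NDUFS4, an accessory subunit of the NADH-oxidising arm, was at 32, 28.9 and 30 normalized CPM in the control and at 54, 45.6 and 30.8 in the knockdown. Knockdown replicate 3 lay between the controls. The log2 ratio was -0.52 (standard error 0.21, adjusted p = 0.228, edgeR's quasi-likelihood test), and -0.34 without knockdown replicate 1.

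NDUFV2, a core subunit with an iron-sulphur cluster, had few reads. Its counts were 90, 50 and 105 in the control and 31, 36 and 35 in the knockdown. The groups did not overlap, and the log2 ratio was 1.22 (standard error 0.35, adjusted p = 0.14, edgeR's quasi-likelihood test). DESeq2's Wald test gave an adjusted p of 0.0453. NDUFV2 shares 28.4% of its exonic bases with another annotated gene on the same strand, ENSG00000265257, and reads that fall in both can be left out of the count of either. Its 1 named pseudogene held 47 counts in the 6 libraries, and reads can be shared with it.

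Other core subunits lay closer to 0. NDUFV1, which holds the flavin, was at 293 to 356 normalized CPM in the control and 308 to 336 in the knockdown, with a log2 ratio of -0.05 and a 95% interval from -0.38 to 0.28. NDUFS3 and NDUFS8 had log2 ratios of -0.23 and 0.04, with groups that overlapped. NDUFS7 was at 0.27, from 4.89 to 7.16 normalized CPM, and 51.4% of its exonic bases are shared with genes on the other strand.

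Among the accessory subunits, the lowest log2 ratios after NDUFS4 were -0.39 for NDUFS6 and -0.39 for NDUFC2. Without control replicate 3 they were -0.63 and -0.88, and without control replicate 1 they were -0.20 and -0.18. NDUFS6 was at 131, 181 and 237 normalized CPM in the control and at 209.6, 253 and 259 in the knockdown, and control replicate 3 lay inside the range of the knockdown. NDUFS5, NDUFA3, NDUFB6 and NDUFV3 were lower in every control library than in any knockdown library, with log2 ratios of -0.36, -0.34, -0.12 and -0.21 and unadjusted p from 0.0539 to 0.381. On the other side NDUFB8 was at 0.59, on 22 to 35 counts in the control and 15 to 20 in the knockdown, and NDUFA11 was at 0.32 with overlapping groups.

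The 8 NDUFAF genes encode assembly factors that are not part of finished complex I. 6 were lower and 2 higher in the control. NDUFAF2, which acts late in assembly, was at 43, 44.6 and 55.5 normalized CPM in the control and at 76.3, 82.7 and 54.2 in the knockdown. Knockdown replicate 3 lay below control replicate 3, so that the groups overlapped. Its log2 ratio was -0.58 (standard error 0.19, adjusted p = 0.173, edgeR's quasi-likelihood test). NDUFAF6 and NDUFAF3 were at -0.49 and -0.34, and NDUFAF7 and NDUFAF5 at 0.26 and 0.14. NDUFAF6 was called without control replicate 3.

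Complex II, succinate dehydrogenase, also serves the citric acid cycle and is encoded in the nucleus alone. SDHA, its flavin-bearing catalytic subunit (ENSG00000073578, chr5:218303-257082, plus strand), was at 212, 237 and 251 normalized CPM in the control and at 284, 318 and 343 in the knockdown. The groups did not overlap. The means were 233 ± 19.7 and 315 ± 29.5 (SD, n = 3 each), a level 1.35-fold higher in the knockdown, with a log2 ratio of -0.43 (standard error 0.15, adjusted p = 0.171, edgeR's quasi-likelihood test). Over all alternatives the log2 ratio of SDHA was between -0.51 and -0.36 and its adjusted p between 0.0679 and 0.465. The 4 annotated pseudogenes of SDHA held 4861 counts in the 6 libraries, and reads can be shared with them.

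The other subunits of complex II had groups that overlapped. SDHC, a membrane anchor, was at 88.4, 91.7 and 71.5 normalized CPM in the control and 132, 114 and 83.2 in the knockdown, with a log2 ratio of -0.39. SDHB, the iron-sulphur subunit, was at -0.09 with a 95% interval from -0.40 to 0.21. SDHD, the second anchor, was at 0.10, with an interval from -0.26 to 0.46.

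Complex III passes electrons from ubiquinol to cytochrome c. CYC1, its cytochrome c1 subunit (ENSG00000179091), had the lowest log2 ratio of all 91 members. It was at 252, 293 and 377 normalized CPM in the control and at 504, 632 and 388 in the knockdown. The groups did not overlap, but control replicate 3 and knockdown replicate 3 nearly met. The means were 307 ± 63.6 and 508 ± 122 (SD, n = 3 each), a level 1.65-fold higher in the knockdown, and the log2 ratio was -0.72 (standard error 0.22, 95% interval from -1.23 to -0.22, adjusted p = 0.148, edgeR's quasi-likelihood test). The adjusted p was 0.0418 with DESeq2's Wald test and 0.0258 with no low-count filter, and ranged from 0.0258 to 0.463 over all alternatives, always with a negative log2 ratio.

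UQCRFS1, the Rieske iron-sulphur protein, was also lower in each control library than in any knockdown library, at 72.9, 87.8 and 90.7 against 92.2, 104.6 and 101 normalized CPM. Its log2 ratio was -0.24 (unadjusted p = 0.13). UQCRC1 and UQCRC2, the large core proteins on the matrix side, were at 0.11 and 0.03. UQCRB and UQCR11, small subunits, were at -0.36 and -0.50 with groups that overlapped.

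UQCRH was level between the groups, at 184.5, 193 and 189.9 normalized CPM in the control and at 186, 185 and 195 in the knockdown, with a log2 ratio of 0.00 and a 95% interval from -0.29 to 0.29. Its near-identical copy UQCRHL had 16, 10 and 25 counts in the control and 6, 5 and 4 in the knockdown. Since it passed the filter only through the control libraries, its log2 ratio of 1.71 is given as a description, with no test. With the 4 mismatches shown above, how many of these reads belong to UQCRH was not tested.

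CYCS encodes cytochrome c, the soluble carrier that also takes part in apoptosis. It was at 197, 229.8 and 256 normalized CPM in the control and at 265, 305 and 287 in the knockdown. The groups did not overlap. Its log2 ratio was -0.33 (standard error 0.15, adjusted p = 0.285, edgeR's quasi-likelihood test), and over all alternatives it was between -0.42 and -0.23. CYCS has 42 named pseudogenes, which held 191 counts in the 6 libraries.

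**Figure D3:**
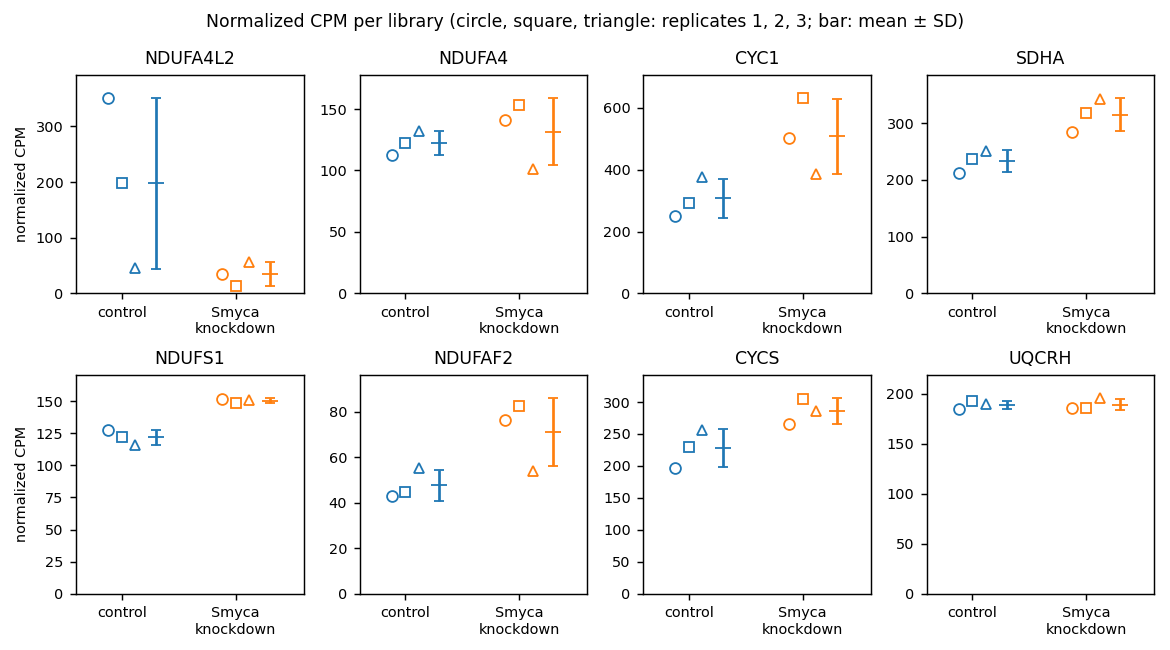
Normalized CPM per library for 8 members, with the group mean and SD beside the points. SDHA, CYC1, NDUFS1 and CYCS are lower in each control library than in any knockdown library, NDUFA4L2 and NDUFAF2 overlap, and UQCRH is level at about the same value in both groups.

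Complex IV, cytochrome c oxidase, reduces oxygen. Of its 14 tested genes, 10 were higher and 4 lower in the control, with COX7A1 and COX7B turning below 0 under RLE size factors. With 1 library left out, COX5B, COX6B1, COX7A1, COX7A2, COX7A2L, COX7B and COX8A each turned below 0 at least once, and the median of complex IV was -0.062 without knockdown replicate 3, so its direction was not stable. Of the 14, 13 had log2 ratios from -0.15 to 0.20. COX4I1, the ubiquitous form of subunit 4, was at 220, 203 and 255 normalized CPM in the control and 226, 243 and 250.1 in the knockdown, with a log2 ratio of -0.08 and a 95% interval from -0.42 to 0.25. COX5A and COX5B were at -0.11 and 0.06. COX7C was above every knockdown library in each control library, at 340 to 343 against 284 to 334 normalized CPM, with a log2 ratio of 0.15 (unadjusted p = 0.28).

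NDUFA4L2, a paralog of NDUFA4 known as a target of hypoxia-inducible factor, was the exception. It had 5686, 3209 and 698 counts in control replicates 1, 2 and 3 and 553, 203 and 848 in the knockdown replicates, or 351, 197 and 44.7 against 35.1, 12.9 and 56 normalized CPM. Control replicates 1 and 2 were above all other libraries, while control replicate 3 lay between knockdown replicates 1 and 3, so that the groups overlapped. The log2 ratio was 2.51 (standard error 0.72, 95% interval from 0.87 to 4.16, adjusted p = 0.14, edgeR's quasi-likelihood test). It was 1.81 without control replicate 1 and 2.98 without control replicate 3, with adjusted p of 0.392 and 0.0119. Reads recovered from the FPKM of control replicate 2 gave 799 for this gene in place of 3209, and with them the log2 ratio was 2.07 (adjusted p = 0.237, edgeR's quasi-likelihood test). How high NDUFA4L2 was in that library therefore depends on which column is read.

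NDUFA4 itself was at 113, 123 and 132 normalized CPM in the control and at 141, 153 and 101 in the knockdown, with a log2 ratio of -0.11 and a 95% interval from -0.52 to 0.31. Set per kilobase of the length implied by the FPKM values, NDUFA4L2 made up 72.7%, 57.8% and 22.4% of the sum of both genes in control replicates 1, 2 and 3 and 17.5%, 6.67% and 32.1% in the knockdown. By counts, NDUFA4L2 was thus the more abundant of the pair in control replicates 1 and 2, but with the recovered reads its share in control replicate 2 was 23.3%.

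By the count columns, the libraries with the highest NDUFA4L2, control replicates 1 and 2, also had the highest summed level of other hypoxia-inducible genes. For control replicate 2 this rests on the 3209 counts of NDUFA4L2 and not on the 799 recovered reads. A list of 15 such genes, among them CA9, NDRG1, ADM and VEGFA, summed to 5567, 3059 and 1955 normalized CPM in the control and 2361, 2101 and 1804 in the knockdown. SLC2A1 alone gave 3023, 1630 and 1102 in the control and 1562, 1610 and 1102 in the knockdown. The 15 genes were listed as a measure already known to differ between the control libraries, so their values are a description only. All 15 had log2 ratios above 0, with a median of 1.17, 11 of them (73.3%, beside 10.4% of all genes) at an unadjusted p under 0.05 and 0 called. EPAS1, which encodes HIF-2α, followed the same libraries at 10.2, 6.34 and 1.41 normalized CPM in the control and 1.52, 1.39 and 3.24 in the knockdown, and HIF1A was at -0.09 on the log2 scale. Other respiratory genes linked to low oxygen were near 0, with HIGD1A at -0.11 and LONP1 and ISCU both at 0.07. The part of the hypoxia-inducible genes in the NDUFA4L2 result was not tested.

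The other oxygen- or tissue-linked forms of complex IV were at or near 0. COX4I2, the form of subunit 4 linked to low oxygen and lung, had 0 counts in all 6 libraries, which with 3 counts as the limit allows up to 0.2 CPM in the smallest library, for counting error only. COX6A2 and COX7B2 also had 0 counts in all 6, and COX8C had at most 2 in any library. COX7A1, the form of heart and muscle, was at 0.615 to 1.15 normalized CPM in the control and 0.635 to 0.95 in the knockdown. COX6B2, known from testis, had 27, 21 and 3 counts in the control and 2, 5 and 3 in the knockdown. It was too low for the test over 6 libraries, and its reads in control replicates 1 and 2 were the same libraries in which NDUFA4L2 was high. In the FPKM column of control replicate 2 its reads were 3 in place of 21. The general forms COX6A1, COX6B1, COX7A2, COX7B and COX8A had log2 ratios from 0.01 to 0.20.

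**Figure D4:**
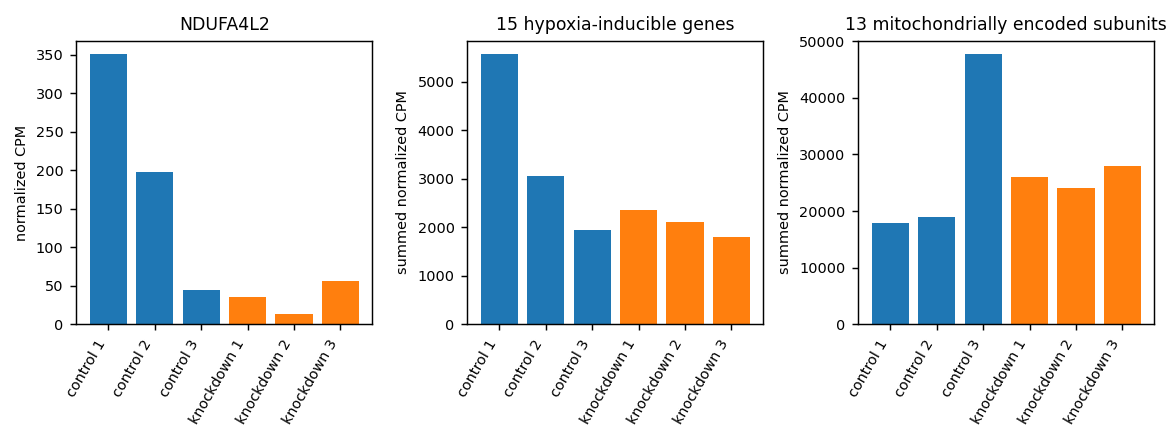
Normalized CPM of NDUFA4L2 (left) and summed normalized CPM of 15 hypoxia-inducible genes (middle) and 13 mitochondrially encoded subunits (right) in each library, with bars from 0. All values come from the count columns. Control replicates 1 and 2 are highest in the left and middle panels, and control replicate 3 is highest in the right panel.

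Complex V, ATP synthase, had 18 tested genes, of which 12 were lower and 6 higher in the control, with log2 ratios from -0.29 to 0.30. At an unadjusted p under 0.05, 0 were higher and 0 lower, beside 10.4% and 8.74% of all genes. In the catalytic F1 head, all 5 subunits had log2 ratios below 0, from -0.24 to -0.05, with ATP5F1D and ATP5F1E turning just above 0 under library totals. All 5 intervals ran at most from 1.5-fold lower to 1.5-fold higher.

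ATP5F1B, the catalytic beta subunit, was the most abundant member at 1065, 1192 and 1117 normalized CPM in the control and 1199, 1303 and 1329 in the knockdown. The groups came close, with control replicate 2 just below knockdown replicate 1, and did not overlap. The log2 ratio was -0.18, with a 95% interval from -0.49 to 0.13. ATP5F1A and ATP5F1C, the alpha and gamma subunits, were at -0.24 and -0.23, and they too were lower in each control library. ATP5F1D and ATP5F1E, the delta and epsilon subunits, were at -0.07 and -0.05 with groups that overlapped.

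The 3 genes ATP5MC1, ATP5MC2 and ATP5MC3 encode the same mature subunit c of the proton-conducting ring. They were at -0.29, 0.00 and -0.18 on the log2 scale. ATP5MC1 was at 70.7, 84.6 and 95.1 normalized CPM in the control and at 116, 126 and 64.4 in the knockdown, so that knockdown replicate 3 was the lowest of all libraries. ATP5IF1, which inhibits ATP hydrolysis by the complex, was at -0.15 with a 95% interval from -0.53 to 0.24. Of the stalk and membrane subunits, ATP5PB and ATP5MK were lower in each control library, at -0.18 and -0.19, and ATP5PD, ATP5PO and ATP5ME had the highest log2 ratios, at 0.26, 0.20 and 0.30. ATP5ME had only 9 to 21 counts a library. With 1 library left out, the lowest values of these ratios were 0.079, 0.069 and 0.062.

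Levels of the members differed far more among genes than between groups. Set per kilobase of the length implied by the FPKM values, the mean of the 2 groups ranged from 0.319 CPM per kb for UQCRHL to 1470 for ATP5F1B. NDUFB8, NDUFS7, NDUFC2, NDUFA13, NDUFV2 and NDUFA9, all parts of complex I, were between 2.31 and 8.11 CPM per kb, while NDUFV1 was at 389.

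Some of the low members share exons with other genes. Of 13 tested members with at least 10% of their exonic bases shared with another gene on the same strand, 9 were under 20 CPM per kb and the median was 16.1. Of the other 78, 11 were under 20 and the median was 93.4. COX8A, NDUFS3 and ATP5MK shared 35.4%, 16.0% and 15.4% and were not low. NDUFA7, which shares 32.5%, was left out by the filter with at most 8 counts in a library, and so were the readthrough genes NDUFC2-KCTD14 and ATP5MF-PTCD1 and the copy ATP5MGL, with at most 2 counts each. Whether reads in shared exons were dropped in the counting was not tested.

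**Figure D5:**
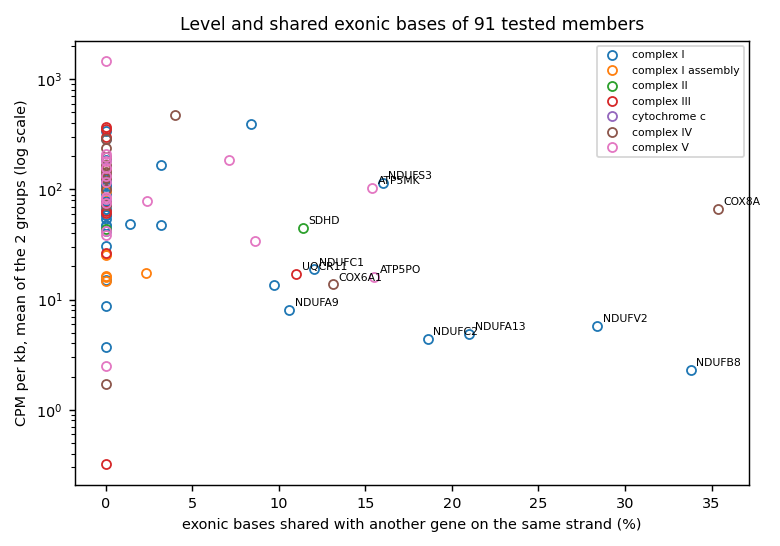
Mean level of each of the 91 tested members in CPM per kilobase (vertical, log scale) against the share of its exonic bases that another gene on the same strand also covers (horizontal). The named genes share at least 10%, and 9 of these 13 are under 20 CPM per kb.

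The 13 subunits encoded by mitochondrial DNA were separate from the nuclear members. They took 1.76%, 1.97% and 4.97% of the counts in control replicates 1, 2 and 3 and 2.33% to 2.69% in the knockdown, and control replicate 3 was the highest. Of the 13, 8 had log2 ratios above 0 and 5 below, and 0 were called. At an unadjusted p under 0.05, 0 were higher and 1 (7.69%) was lower, MT-ND6 at -0.66, beside 10.4% and 8.74% of all genes, so that the share lower was near that of all genes. MT-CO1 was at 8659, 8772 and 18430 normalized CPM in the control and 12310, 11340 and 13770 in the knockdown, which puts both ends of its range in the control group.

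Among 49 tested assembly factors other than the NDUFAF genes, 0 were called, and at an unadjusted p under 0.05, 0 were higher and 4 (8.16%) lower in the control, beside 10.4% and 8.74% of all genes. The 4 were ACAD9, an assembly factor of complex I, at -0.36, and COX11, COX18 and COA3, which help to build complex IV, at -0.44, -0.48 and -0.65. Their list had a median of -0.12 and 36 of 49 genes below 0.

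Of 16 tested regulators of respiratory chain transcription, 12 were below 0 and the median log2 ratio was -0.15. At an unadjusted p under 0.05, 2 (12.5%) were lower and 1 (6.25%) was higher, beside 8.74% and 10.4% of all genes. The one that was higher was EPAS1, given above, at 1.55. TFAM, the packaging and transcription factor of mitochondrial DNA, was at 129, 159.9 and 163 normalized CPM in the control and at 210.1, 220 and 227 in the knockdown, without overlap. Its log2 ratio was -0.54 (standard error 0.15, adjusted p = 0.13, edgeR's quasi-likelihood test). PPARGC1B, a coactivator of these genes, was at -0.68 (unadjusted p = 0.0151), and NRF1, a transcription factor named for nuclear respiratory genes, at -0.26 (unadjusted p = 0.169). MYC was at -0.04, with a range of 500 to 746 normalized CPM in the control and 524 to 755 in the knockdown.

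Promoters of the members were compared with those of other genes because NRF1 and ETS factors are known to bind many respiratory chain promoters. In RefSeq promoters of GRCh38.p14, 79 of the 100 members had an entry, and the 250 bases before the start were searched on both strands. CGCATGCG, the core of the NRF1 motif, was found in 9 of 79 members (11.4%) and in 3.28% of 10964 promoters of tested genes, or 1.86% of all 27305. CCGGAAG, an ETS motif, was found in 18 (22.8%), in 15.7% of those of tested genes and in 8.82% of all. The E-box CACGTG was found in 7 (8.86%), in 8.85% and in 6.49%, and ACGTG, the core bound by hypoxia-inducible factors, which every CACGTG also holds, in 18 (22.8%), in 23.3% and in 18.7%. A match is a description of the letters and not evidence of binding.

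The promoters of COX6A1, NDUFB4 and CYCS are shown as examples. In that order, they hold exact matches to both the NRF1 core and an ETS motif, to the NRF1 core alone, and to neither. Only exact letters were searched for, so a promoter without a match, such as that of CYCS, may still hold a variant of either motif. The promoters shown lie at chr12:120437863-120438112 on the plus strand, chr3:120596086-120596335 on the plus strand and chr7:25125261-25125510 on the minus strand of GRCh38.p14. Capitals mark the motifs named above, read on the other strand for the ETS motif of COX6A1 and for ACGTG in CYCS.
COX6A1: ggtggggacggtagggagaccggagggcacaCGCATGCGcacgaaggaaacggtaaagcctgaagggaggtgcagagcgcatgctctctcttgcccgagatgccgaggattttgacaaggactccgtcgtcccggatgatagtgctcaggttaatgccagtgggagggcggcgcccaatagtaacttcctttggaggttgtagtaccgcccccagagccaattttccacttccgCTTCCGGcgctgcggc
NDUFB4: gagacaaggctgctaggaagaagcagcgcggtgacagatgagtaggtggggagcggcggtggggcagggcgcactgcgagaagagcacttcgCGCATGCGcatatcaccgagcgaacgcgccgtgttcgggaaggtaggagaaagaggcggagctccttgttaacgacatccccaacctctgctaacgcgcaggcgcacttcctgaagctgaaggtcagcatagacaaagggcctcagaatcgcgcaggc
CYCS: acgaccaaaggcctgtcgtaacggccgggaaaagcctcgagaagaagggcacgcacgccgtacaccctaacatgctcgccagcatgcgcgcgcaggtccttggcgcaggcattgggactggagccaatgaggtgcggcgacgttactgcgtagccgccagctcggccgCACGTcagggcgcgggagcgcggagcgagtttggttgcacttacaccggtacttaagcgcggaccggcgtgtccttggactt
COX6A1 had a log2 ratio of 0.20, NDUFB4 one of 0.03 and CYCS one of -0.33. The 9 members with the NRF1 core had a median log2 ratio of 0.03 and a range from -0.39 to 0.30, and the 64 tested members without it a median of -0.12. For the ETS motif the median was -0.02 in 18 tested members with it and -0.11 in 55 without, and for the E-box it was 0.20 in 6 with it and -0.10 in 67 without. For the 16 tested members with ACGTG the median was -0.10, and for the 57 without it -0.09. NDUFA4L2 and CYC1 had no entry.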

How the data were processed

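RNA-seq of 3 control shRNA and 3 Smyca shRNA #1 libraries of MDA-MB-231 cells was used. The authors removed rRNA, made strand-specific libraries, sequenced paired ends of 150 bases, mapped them to GRCh38 (TopHat2 2.0.12 in the submitters' processing notes) and counted reads per gene with HTSeq. The annotation release and strand setting are not given in the sources used here. The authors deposited raw read counts and FPKM values for 58302 genes. Tests used the counts. FPKM served for gene lengths and for a check: 100% of genes with at least 20 counts followed the counts within 1% in 5 libraries, and 2.553% in control replicate 2, where 16759253 whole reads were recovered (100% whole within 0.05 read, under 200 reads).

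GENCODE release 44 gave 57532 symbols. Counts were fitted in R 4.3.3 with edgeR 4.0.16 (TMM, filterByExpr, quasi-likelihood test, no block, Benjamini-Hochberg adjustment), since the study's version of DESeq was not used here. The biological coefficient of variation was 25.2%. The study calls the replicates biological repeats, and the labels name no separate cultures, so p-values measure the spread between these libraries. Intervals are 95% and use the moderated degrees of freedom. Alternatives were RLE size factors, library totals, DESeq2 1.42.0, a minimum of 10 counts in all samples, the filter removed down to 1 count, a replicate block, each library left out, the recovered reads and other thresholds. Genes named were the core subunits, paralog pairs, the 3 highest and 3 lowest tested members per complex and members with an unadjusted p under 0.05; other members named for groups without overlap or for shared exons, and genes picked from the other lists, were chosen after their values were seen. Members and lists were chosen with earlier results of these data known. 1 tested member enters the counts and medians but is not reported by name. The code was tested on simulated data.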

Additional observations from a re-analysis of the deposited data

Results flagged for a closer look

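NDUFA4L2 in control replicate 2 stood out because the library's FPKM column, which enters only an alternative fit, holds another value than its counts. The reads behind that column were 799, and the count column gave 3209. In control replicate 3 the count was 698, and in the knockdown libraries it was 553, 203 and 848. Over the 91 tested members, the ratio of recovered reads to counts in this library had a median of 1.26 and ranged from 0.249, for NDUFA4L2, to 3.3, for UQCRHL. Which of the columns belongs to control replicate 2 was not tested.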

How the results depend on the processing

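The median log2 ratio of the members stayed negative under each of the 13 other fits, and 0 members were called under all but 3 of them. The median over members was -0.18 to -0.05 with 1 library left out and -0.14 to -0.04 under the other alternatives. The count of called members was 0 to 5 with 1 library left out, the 5 arising without control replicate 3. It was 2 with DESeq2 (CYC1 and NDUFV2), 2 with no low-count filter (CYC1 and NDUFA4L2), and 0 at an adjusted p under 0.1 or with no ratio threshold. Members lower in the control at an unadjusted p under 0.05 numbered 3 with library totals (3.3%, beside 5.86% of all genes), 8 with no low-count filter (8.33%, beside 5.67%) and 1 to 16 with 1 library left out (1.09% to 17.4%, beside 4.75% to 13.9%), with 1 each without control replicate 1 and without knockdown replicate 2. Over all genes the count called was 4 as reported, 836 with DESeq2, 916 with no low-count filter, 8 with library totals, 10 with the recovered reads and 0 to 1628 with 1 library left out, 1628 without control replicate 3. The complex IV median was -0.062 to 0.148 with 1 library left out, lowest without knockdown replicate 3. The causes were not tested. With a replicate block, 0 members and 0 of all genes were called, 5 were lower and 3 higher at an unadjusted p under 0.05, and the median was -0.10. The labels give the groups the same replicate numbers, but the deviations of same-numbered pairs correlated at 0.061, 0.084 and -0.014, so the numbers were not taken as pairs.

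Of 57 named genes tested, 37 kept the sign of their log2 ratio in every fit that tested them. The signs that turned with DESeq2 were ATP5MC2 at -0.011, COX7A1 at -0.014, COX7B at -0.007 and UQCRH at -0.014, and with RLE size factors ATP5MC2 at -0.011, COX7A1 at -0.014, COX7B at -0.007 and UQCRH at -0.014. With library totals they were ATP5F1D at 0.006, ATP5F1E at 0.024 and NDUFV1 at 0.024. With no low-count filter they were ATP5MC2 at -0.031, COX7A1 at -0.034, COX7B at -0.025 and UQCRH at -0.033. With the recovered reads they were ATP5F1D at 0.083, ATP5F1E at 0.029, COX4I1 at 0.012, NDUFV1 at 0.082, UQCRC2 at -0.04 and UQCRH at -0.022. With the replicate block it was COX7A1 at -0.029. With 1 library left out, the ranges of the genes that turned were ATP5F1D -0.22 to 0.044, ATP5F1E -0.17 to 0.075, ATP5MC2 -0.17 to 0.13, COX5B -0.024 to 0.11, COX6B1 -0.10 to 0.15, COX7A1 -0.36 to 0.15, COX7A2 -0.08 to 0.18, COX7A2L -0.083 to 0.19, COX7B -0.15 to 0.14, COX8A -0.11 to 0.18, NDUFA11 -0.022 to 0.52, NDUFA4 -0.28 to 0.01, NDUFAF5 -0.27 to 0.30, NDUFS8 -0.17 to 0.14, NDUFV1 -0.15 to 0.004, SDHD -0.009 to 0.18, UQCRC1 -0.003 to 0.21, UQCRC2 -0.022 to 0.083 and UQCRH -0.019 to 0.021.

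Depth limits the low members: 8 of 91 tested had under 100 counts in control replicate 1, and COX6B2, UQCRHL and NDUFB8 rest on few reads. All values come from 1 shRNA and 3 libraries a group.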
